A study of Mus musculus with 96 samples.

Results

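The transcripts described here encode 7 regulators that mark the primed epiblast: Otx2, Fgf5, Pou3f1, Zic2, Sall2, Sox4 and Sox11. They were chosen by symbol, and each symbol matched 1 of the 23284 gene rows of the count table, so all 7 members were measured. Messenger RNA was sequenced from 48 single cells of J1, a line of mouse embryonic stem (ES) cells, at passages 12 to 20, grown without feeder cells in serum with leukaemia inhibitory factor (LIF). Cells were captured on a Fluidigm C1 chip, SMARTer chemistry amplified their cDNA, and each Nextera XT library was run on 2 lanes, which gave 96 sets of counts. All cells form 1 group, serum ES cells, and the labels name no separate culture or chip for any of them. The cells are therefore not replicates of a condition, no p-value between cells is given, and correlations across cells are descriptions.

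Mouse ES cells in serum and LIF are known to move between a naive state, which resembles the epiblast before implantation, and states closer to the primed epiblast after implantation. In that transition the transcription factor Otx2 rises and works with Oct4 (Pou5f1) at new enhancers, the growth factor Fgf5 is switched on, and naive genes such as Zfp42 (Rex1) and Esrrb are shut down. Zfp42 and Esrrb are zinc finger and nuclear receptor genes of the naive state, and they serve below as its measures within each cell.

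Counts were summed over the lanes of a cell and scaled to CPM, counts relative to the scaled total of the cell. A cell held from 4408953 to 9767245 reads in genes, with a median of 7054853. In 35 cells Gata6, a transcription factor of primitive endoderm, lay at or below 1.11 CPM, and in the other 13 cells it lay between 63.7 and 808 CPM. No cell lay near the threshold of 20 CPM. The 35 cells are called Gata6-low and the 13 cells Gata6-high below. A sum over 12 primitive endoderm genes lay between 45.4 and 1391 CPM in Gata6-low cells and between 10440 and 38600 CPM in Gata6-high cells. This sum includes Gata6 itself, the gene that set the groups. The Gata6-low cells had a median of 6419369 reads, against 8076614 reads in the Gata6-high cells, and a median of 9045 genes with a read, against 8986. Zfp42 was detected in all 48 cells, and Esrrb in 34 of 35 Gata6-low cells and 7 of 13 Gata6-high cells. Of 6 fibroblast marker genes, 4 had 0 reads in the Gata6-low cells, where the sum over the 6 reached 35.9 CPM in 1 cell and had a median of 0.

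The members lie on 5 chromosomes. In the RefSeq annotation of GRCm38.p6, Otx2 lies at chr14:48656781-48667644 on the minus strand, Sall2 at chr14:52311177-52328670 on the minus strand and Zic2 at chr14:122475384-122480328 on the plus strand. Fgf5 lies at chr5:98254184-98277033 and Pou3f1 at chr4:124657646-124660655, both on the plus strand. Sox4 lies at chr13:28948919-28953699 and Sox11 at chr12:27334268-27342718, both on the minus strand. Pou3f1, Sox4 and Sox11 each have a single exon block in the GENCODE annotation. Exons of other genes overlap 3 members: Otx2os1 and Gm49154 overlap Otx2, Gm2164 overlaps Pou3f1 and Gm26735 overlaps Sox4. The library kit does not mark strand, so reads of such partners cannot be told apart from reads of the member. Otx2os1 had 268 reads in all cells together, against 17932 for Otx2.

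The start regions of 5 members are shown, since the genes were detected in very different numbers of cells, to set the sequences at which they begin side by side; those of Pou3f1 and Zic2 are not shown. Each window holds 250 bases before and 50 bases after the outermost annotated start, from RefSeq on GRCm38.p6, at chr14:48667595-48667894 minus (Otx2), chr5:98253934-98254233 plus (Fgf5), chr14:52328621-52328920 minus (Sall2), chr13:28953650-28953949 minus (Sox4) and chr12:27342669-27342968 minus (Sox11), written 5′ to 3′ on the gene's strand. Capitals mark matches on either strand to 5 motifs: the CCAAT box (CCAAT), the TATA box (TATAAA), the GC box (GGGCGG), the octamer (ATGCAAAT) and the OTX site (TAATCC).
Otx2: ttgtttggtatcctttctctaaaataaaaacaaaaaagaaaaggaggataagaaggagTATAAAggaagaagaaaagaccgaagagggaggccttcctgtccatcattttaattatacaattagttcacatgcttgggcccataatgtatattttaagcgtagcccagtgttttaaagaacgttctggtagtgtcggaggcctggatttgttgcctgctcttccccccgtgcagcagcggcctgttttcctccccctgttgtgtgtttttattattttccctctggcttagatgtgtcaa
Fgf5: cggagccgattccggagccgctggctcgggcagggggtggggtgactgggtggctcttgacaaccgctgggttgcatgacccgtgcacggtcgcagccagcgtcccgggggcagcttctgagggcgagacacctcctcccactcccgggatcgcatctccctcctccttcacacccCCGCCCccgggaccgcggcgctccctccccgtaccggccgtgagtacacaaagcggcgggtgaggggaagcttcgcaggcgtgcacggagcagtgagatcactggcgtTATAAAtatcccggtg
Sall2: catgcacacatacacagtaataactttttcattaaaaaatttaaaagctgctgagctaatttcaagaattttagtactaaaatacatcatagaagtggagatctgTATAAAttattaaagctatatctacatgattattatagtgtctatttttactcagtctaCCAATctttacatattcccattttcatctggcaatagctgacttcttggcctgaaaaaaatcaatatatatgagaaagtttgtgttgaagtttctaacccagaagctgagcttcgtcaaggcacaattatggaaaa
Sox4: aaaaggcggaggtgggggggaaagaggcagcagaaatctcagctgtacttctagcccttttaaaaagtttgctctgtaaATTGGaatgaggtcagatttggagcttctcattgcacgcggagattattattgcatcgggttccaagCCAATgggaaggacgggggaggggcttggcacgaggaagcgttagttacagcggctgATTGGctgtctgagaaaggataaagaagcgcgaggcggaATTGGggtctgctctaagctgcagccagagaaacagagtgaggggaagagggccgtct
Sox11: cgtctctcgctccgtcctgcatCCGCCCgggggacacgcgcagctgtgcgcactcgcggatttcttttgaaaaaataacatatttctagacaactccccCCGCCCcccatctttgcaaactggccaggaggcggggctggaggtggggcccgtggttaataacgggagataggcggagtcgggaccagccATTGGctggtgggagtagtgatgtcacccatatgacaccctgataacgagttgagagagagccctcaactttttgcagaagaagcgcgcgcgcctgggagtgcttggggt
The outermost Sall2 window holds 1 CpG dinucleotide and 30.3% G and C, the inner one, at chr14:52316274-52316573, holds 10 and 65%, and the Fgf5 window holds 29 CpG dinucleotides and 68.3% G and C. The Sox4 window holds 4 CCAAT boxes, where 37.4% of 32851 RefSeq promoter windows of the same length hold at least 1. The GC box, found in the Fgf5 and Sox11 windows, occurs in 35.7% of these windows. The TATA box, found in the windows of Otx2, Fgf5 and Sall2, occurs in 13.6%. Its matches begin at -192 (Otx2), -145 (Sall2) and 34 (Fgf5) from the outermost start, where negative positions lie before the start. None of the 5 windows holds the octamer (1.74% of windows) or the OTX site (7.06%). RefSeq lists other starts too, 4 windows in all for Otx2 and 2 for Sall2, and an inner Otx2 window, at chr14:48665060-48665359, holds an OTX site. These matches are descriptions of letters and not sites of binding.

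The members differed widely in how many cells expressed them above the detection minimum. A gene counted as detected in a cell with at least 5 reads after every cell was thinned to 4408953 reads. Thinning was 1 random draw, so detection of a gene close to 5 reads may change with the draw. Intervals are exact Clopper-Pearson 95% intervals. These libraries carry no molecular identifiers, so reads are not independent molecules, and intervals and limits cover counting error only. Otx2, a homeobox factor, was detected in 28 of 35 Gata6-low cells (80%, interval 63.1% to 91.6%) and in 7 of 13 Gata6-high cells (53.8%). Sox11, a SoxC factor of progenitor cells, was detected in 17 of 35 Gata6-low cells (48.6%, interval 31.4% to 66%) and in 1 of 13 Gata6-high cells (7.69%). The other 5 members were each found in at most 28.6% of the Gata6-low cells.

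Sox4, the other SoxC gene, was detected in 10 of 35 Gata6-low cells (28.6%) and 2 of 13 Gata6-high cells (15.4%). Over all 48 cells its count rested on the minimum, with 12 cells at 5 reads, 23 at 1 read and 6 at 20 reads. Pou3f1 (Oct6), a POU domain factor, was detected in 9 of 35 (25.7%) and 1 of 13 (7.69%). Zic2, a zinc finger factor known from neural patterning, was detected in 7 of 35 (20.0%) and 1 of 13 (7.69%). Sall2, a spalt family zinc finger factor, was detected in 6 of 35 (17.1%) and 3 of 13 (23.1%). Fgf5, the secreted ligand, was detected in 3 of 35 Gata6-low cells (8.57%, interval 1.8% to 23.1%) and in 0 of 13 Gata6-high cells. The exact interval of that 0 reaches 24.7%, and the limit of 3 cells of 13 allows a share of up to 23.1%. Every cell with 5 or more reads of a member had reads of it on both lanes, with 1 exception among the 15 such cells of Sox4.

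Levels over all cells of a group, detected or not, spanned a wide range. Otx2 had a lowest level of 0, a median of 31.2 and a highest of 488 CPM in Gata6-low cells, against 0, 3.14 and 112 CPM in Gata6-high cells. Sox11 had 0, 1.05 and 188 CPM in Gata6-low cells, against 0, 0 and 0.912 CPM in Gata6-high cells. For Otx2 the groups overlapped up to the highest Gata6-high level of 112 CPM, which lay above the Gata6-low median of 31.2 CPM. For Sox11 they overlapped at the low end, and 12 Gata6-low cells held over 100 reads of Sox11 where no Gata6-high cell did. For Fgf5, Pou3f1, Zic2 and Sall2 the lowest and the median level were 0 in both groups. Their highest levels were 77.7 CPM for Fgf5, 37.2 CPM for Pou3f1, 27.0 CPM for Zic2 and 70.2 CPM for Sall2 in Gata6-low cells, against 0.113, 16.3, 7.67 and 6.26 CPM in Gata6-high cells. Sox4 had a median of 0.141 and a highest level of 19.2 CPM in Gata6-low cells, against a median of 0 and a highest of 20.6 CPM in Gata6-high cells. The highest Sox4 value of all cells was thus in a Gata6-high cell.

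**Figure D1:**
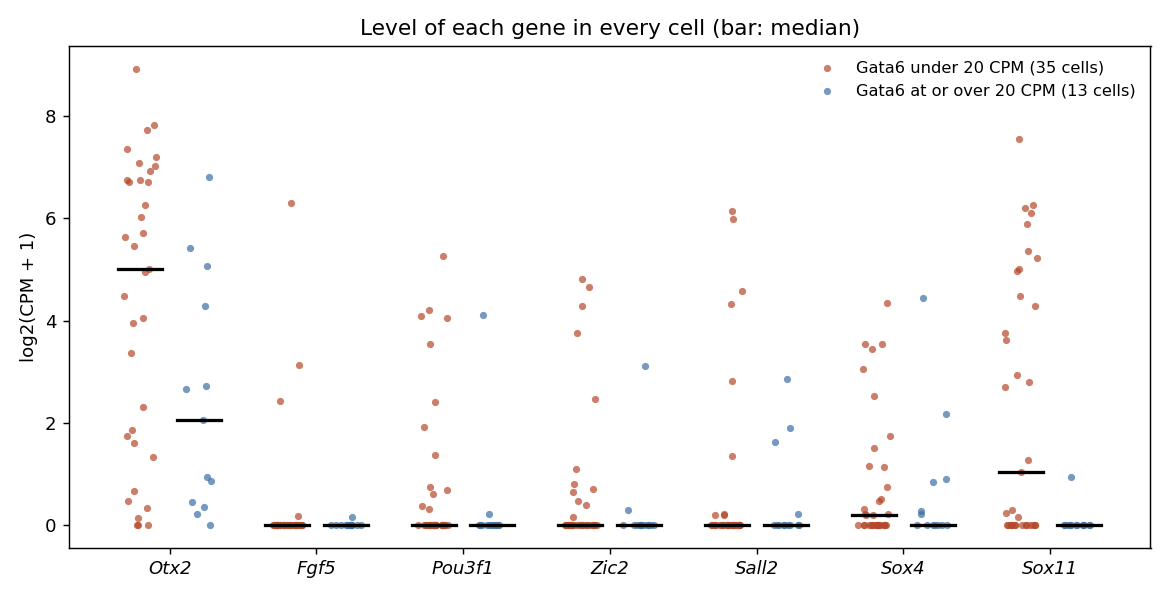
Levels of the 7 members as log2(CPM + 1), 1 point per cell, with Gata6-low cells left of Gata6-high cells for each gene; bars mark medians. Otx2 reaches 488 CPM in Gata6-low cells and 112 CPM in Gata6-high cells, and most points of Fgf5, Pou3f1, Zic2 and Sall2 lie at 0.

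Per kilobase of exon, the mean level in Gata6-low cells was 23.5 ± 32.5 CPM for Otx2 and 35.8 ± 28.3 CPM for Esrrb (SD over 35 cells), a difference smaller than the SD of either. Sox11 followed at 2.36 ± 4.48 CPM, Zic2 at 1.06 ± 2.82, Fgf5 at 1.03 ± 5.26, Sall2 at 0.962 ± 2.97, Pou3f1 at 0.801 ± 1.99 and Sox4 at 0.425 ± 0.901 CPM per kilobase. From Sox11 to Sox4, neighbours in this order differ by less than the SD over cells. These SDs are spreads between cells and not errors of a mean, so they do not show that means are alike. The median per kilobase was 10.4 CPM for Otx2 and 23.3 CPM for Esrrb. Zfp42 stood at 903 ± 505 CPM per kilobase. The mean of Fgf5 rests on few cells: 85.2% of its reads in Gata6-low cells came from cell 30, and 99.8% from 3 cells. For Otx2 the cell with most reads, cell 44, gave 14.5%, and for Sall2, cell 42 gave 34.7%.

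On the log2(CPM + 1) scale, the mean difference of Gata6-low minus Gata6-high cells was 2.22 for Sox11 and 1.90 for Otx2. It was 0.51 for Pou3f1, 0.43 for Zic2, 0.33 for Fgf5, 0.23 for Sall2 and 0.14 for Sox4. Among the 11746 genes that averaged 10 reads or more per cell, 16.5% differed by at least 1 in this direction and 15.9% by at least 1 in the other; of the members, 2 of 7 and 0 of 7 did. The median difference was 0.43 over the members and 0.15 over all these genes. These differences have no test, since the cells form 1 sample.

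Spread between cells was tested with modelGeneVar of scran over all genes that averaged 10 reads or more, with Benjamini-Hochberg adjustment. None of the 7 members was called in the 35 Gata6-low cells, where 1.75% of 11454 genes were, and none in all 48 cells, where 2.03% of 11746 genes were. The number of members with an unadjusted p under 0.05 was 0 in both fits. Otx2 came nearest, with a variance of 8.01 in Gata6-low cells where the trend for its mean level gave 5.08 (scran, p = 0.0637, adjusted p = 0.934). Sox11 had 6.51 against a trend of 5.52. A call was hard to reach for such thinly counted genes: on simulated data for the Gata6-low cells, 27.5% of genes with a mean of 10 to 50 reads were called at 4 times the dispersion, against 92% of genes with a mean over 500 reads. Only 2 members, Otx2 and Sox11, had a mean of at least 50 reads.

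The members were then counted per cell. Among the 35 Gata6-low cells, 3 held no member, 11 held 1, 10 held 2, 3 held 3, 5 held 4, 1 held 6 and 2 held all 7. At least 3 members were detected in 11 of 35 Gata6-low cells and in 1 of 13 Gata6-high cells. That Gata6-high cell, cell 41, had 7 reads of Sox11 (0.912 CPM) before thinning. With reads not thinned, the count in Gata6-low cells was also 11. The 3 cells with Fgf5 were those with most members: cell 12 held 6, all but Sox4, and cells 30 and 45 held all 7. In these cells Fgf5 stood at 4.37 CPM (cell 12), 77.7 CPM (cell 30) and 7.81 CPM (cell 45). Otx2 stood at 103, 146 and 164 CPM in the same cells, each above its median of 31.2 CPM. Pou3f1 stood at 10.6, 15.6 and 17.4 CPM, and Sall2 at 19.0, 23.0 and 6.05 CPM. Cell 45 lay close to the detection minimum for Zic2 and Sox4. It had 5 reads of Zic2 (0.737 CPM) and 8 reads of Sox4 (1.18 CPM) before thinning.

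A different combination appeared in cell 11, which had the lowest Zfp42 of the Gata6-low cells, at 109 CPM, and Esrrb at 0.165 CPM. It held the highest Pou3f1 and Zic2 of all cells, at 37.2 and 27.0 CPM, with Sall2 at 62.7 CPM and Otx2 at 108 CPM, and 0 CPM of Sox4 and Sox11. The naive gene Nanog, a homeobox factor, stood at 1.65 CPM there. Cell 44 held the highest Otx2, at 488 CPM, and no other member was detected in it. The highest Sox11, 188 CPM, was in cell 34, which also held the highest Zfp42, at 4467 CPM. The highest values of Otx2, Sox11 and Pou3f1 thus lay in 3 different cells, while those of Pou3f1 and Zic2 lay in the same one.

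**Figure D2:**
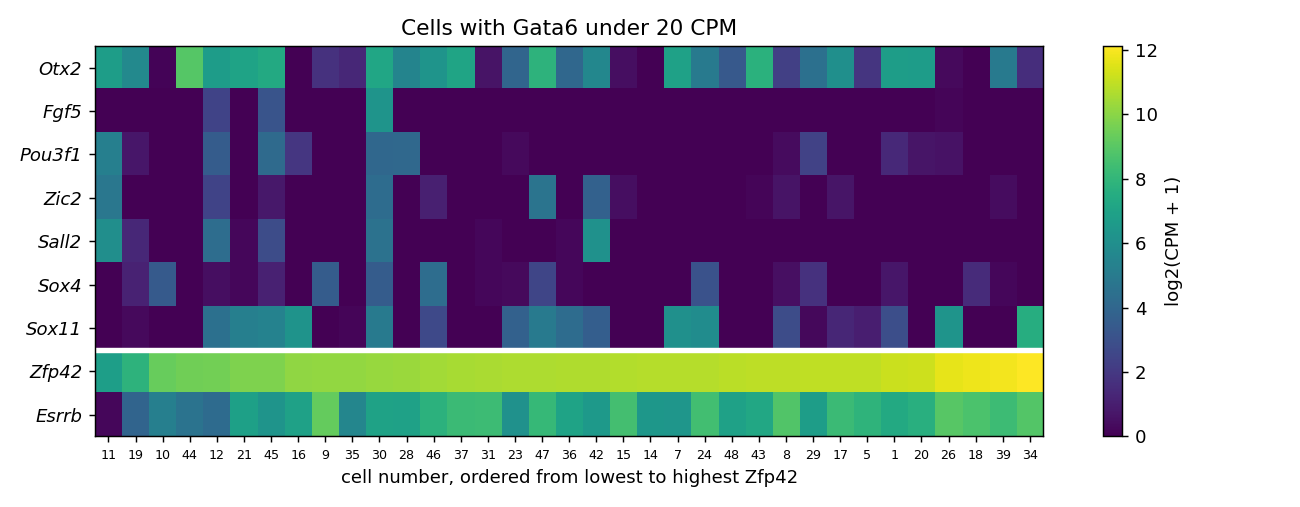
Levels of the 7 members, as log2(CPM + 1) by colour, with Zfp42 and Esrrb beside them, in each of the 35 Gata6-low cells, 1 column per cell in order of Zfp42. Cells 12, 30 and 45 hold 6, 7 and 7 detected members, with Zic2 in cell 45 as low as 0.737 CPM. Cell 11, lowest in Zfp42 at 109 CPM, is filled for Otx2, Pou3f1, Zic2 and Sall2.

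Pairs of members were compared by the cells they share. Zic2 and Sall2 were detected together in 5 cells, which are 71.4% of the Zic2 cells and 83.3% of the Sall2 cells. Among them is cell 45, with 5 reads of Zic2 before thinning. Pou3f1 and Sall2 also shared 5 cells, 55.6% of the Pou3f1 cells and 83.3% of the Sall2 cells. Otx2 was detected in 7 of 7 Zic2 cells, 6 of 6 Sall2 cells and 8 of 9 Pou3f1 cells, where it was detected in 28 of all 35. Zic2 and Sox11 shared 6 cells, 85.7% of the Zic2 cells and 35.3% of the Sox11 cells. The SoxC genes Sox4 and Sox11 shared 5 cells, 50% of the Sox4 cells and 29.4% of the Sox11 cells.

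Spearman correlations over the 35 Gata6-low cells were positive for 21 of 21 pairs, with a mean of 0.25. They lay between 0.07 for Otx2 with Sox4 and 0.52 for Fgf5 with Pou3f1. The cells share a sample, and depth and genes per cell differ between them, so these values are descriptions. At least 0.3 was reached by 8 of 21 pairs. Of 11453 genes, the share at or above 0.3 was 4.84% with Otx2, 4.1% with Fgf5, 6.38% with Pou3f1, 5.77% with Zic2, 5.61% with Sall2, 4.08% with Sox4 and 5.3% with Sox11. In the 32 cells without Fgf5, a choice made once the values were seen, the mean over pairs was 0.0386, 12 of 21 pairs were positive and 1 reached 0.3. Over the 15 pairs that leave out Fgf5, the mean was 0.21 in the 35 cells and 0.06 without those 3 cells. The pair at 0.3 in both was Otx2 with Zic2, at 0.43 in 35 cells and 0.32 without the 3. Zic2 with Sall2 stood at 0.44 in 35 cells and 0.17 without the 3.

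**Figure D3:**
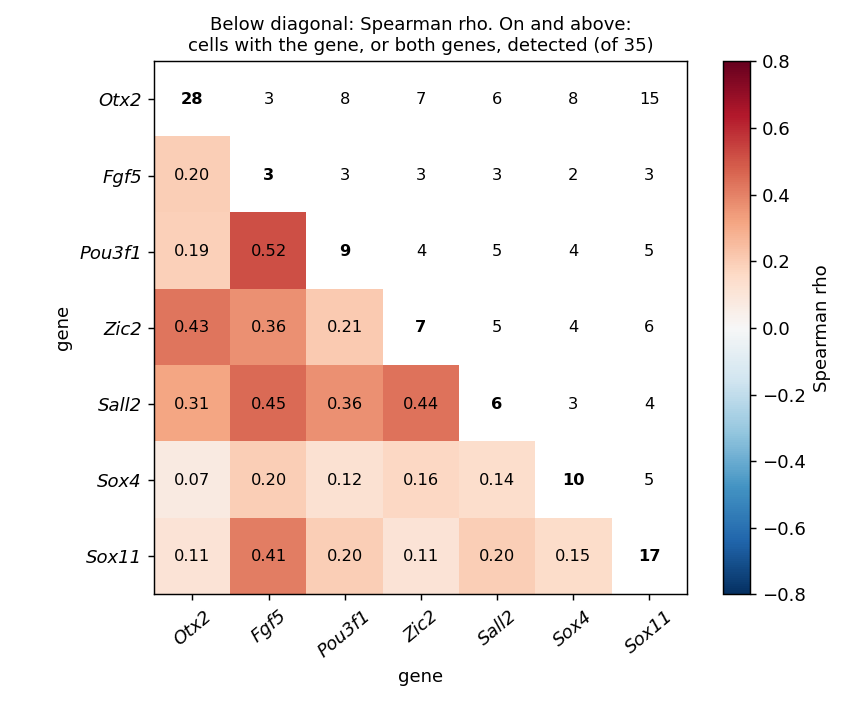
Below the diagonal, the Spearman correlation of each pair of members over the 35 Gata6-low cells, as number and colour; on the diagonal, the cells in which a member was detected; above it, the cells in which both were. Values run from 0.07 for Otx2 with Sox4 to 0.52 for Fgf5 with Pou3f1, and 8 of 21 pairs reach 0.3.

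Relation to the naive genes was asked next. Sall2 had the most negative correlation with Zfp42 of the members, a Spearman rho of -0.51 and a Pearson r of -0.51 over 35 cells, and 0.314% of all genes lay as low or lower. The 6 cells with Sall2 had Zfp42 at 109, 230, 755, 872, 1203 and 1653 CPM, where the median of the Gata6-low cells was 1628 CPM. All but 1 of these cells thus lay below the median. Leaving out the 2 cells farthest from the median of Zfp42, the rho was -0.40, and without the 3 Fgf5 cells it was -0.42. Pou3f1 had -0.25, Otx2 -0.25, Sox4 -0.20, Fgf5 -0.17, Zic2 -0.15 and Sox11 0.06. With Pearson's r Pou3f1 had -0.49, where cell 11 holds both its highest value and the lowest Zfp42.

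In all, 1 of 7 members lay at -0.3 or lower with Zfp42, where 6.4% of genes did, and 3 of 7 with Esrrb, where 6.44% did. No member lay at 0.3 or higher with either gene, where 6.88% of genes did with Zfp42 and 7.51% with Esrrb. With Esrrb, Sall2 had a rho of -0.43, Pou3f1 -0.35 and Otx2 -0.31, against -0.10 for Fgf5, -0.06 for Zic2, 0.08 for Sox4 and 0.04 for Sox11. The rho of the naive genes with each other was 0.64. The median over the members was -0.20 with Zfp42 and -0.10 with Esrrb, against -0.0016 and 0.0062 over all genes. Calls near the limit did not hold in every setting: without the 3 Fgf5 cells the rho with Esrrb was -0.34 for Sall2, -0.24 for Pou3f1 and -0.27 for Otx2, and the median over the members was 0.0911. That median counts Fgf5 at 0.28, a value that rests on 1 read, in cell 26. Without cell 11, Pou3f1 had -0.28 and Otx2 -0.28 with Esrrb. Leaving out the 2 cells farthest from the median of Esrrb, Sall2 had -0.29, Pou3f1 -0.23 and Otx2 -0.27 with Esrrb. None of these 3 then lay at -0.3 or lower. With Pearson's r, Zic2 had -0.37 with both Zfp42 and Esrrb, and cell 11 holds its highest value. Sox4 had -0.11 and 0.13, and Sox11 had 0.18 and 0.16. Weak rank correlations such as those of Fgf5, Zic2, Sox4 and Sox11 are no finding over 35 cells. The same holds for Otx2 and Pou3f1 with Zfp42, where 10.8% and 10.2% of all genes lay as low or lower. Counts of Fgf5, Zic2 and Sox4 are also sparse.

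Depth and gene number moved with some members. The rho of Otx2 with total reads was -0.37, and that of Pou3f1 with the number of genes with a read was 0.54. The number of members detected per cell had a rho of -0.45 with total reads, 0.47 with genes with a read, -0.33 with Zfp42 and -0.29 with Esrrb. With the number of genes with a read regressed out of both sides, Sall2 had a rho of -0.38 with Zfp42 and -0.30 with Esrrb. In this setting Otx2 had -0.21 and Pou3f1 -0.12 with Esrrb. Cells with 0 reads of a member, 26 of 35 for Sall2, are then no longer tied but are ranked by gene number. The rho of Fgf5 with Sall2 went from 0.45 to 0.81 in this way. These values therefore cannot show how much gene number contributes. With library size as the sole scaling, the rho of Pou3f1 with Zfp42 was -0.05. The part of total reads in these relations was not tested.

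**Figure D4:**
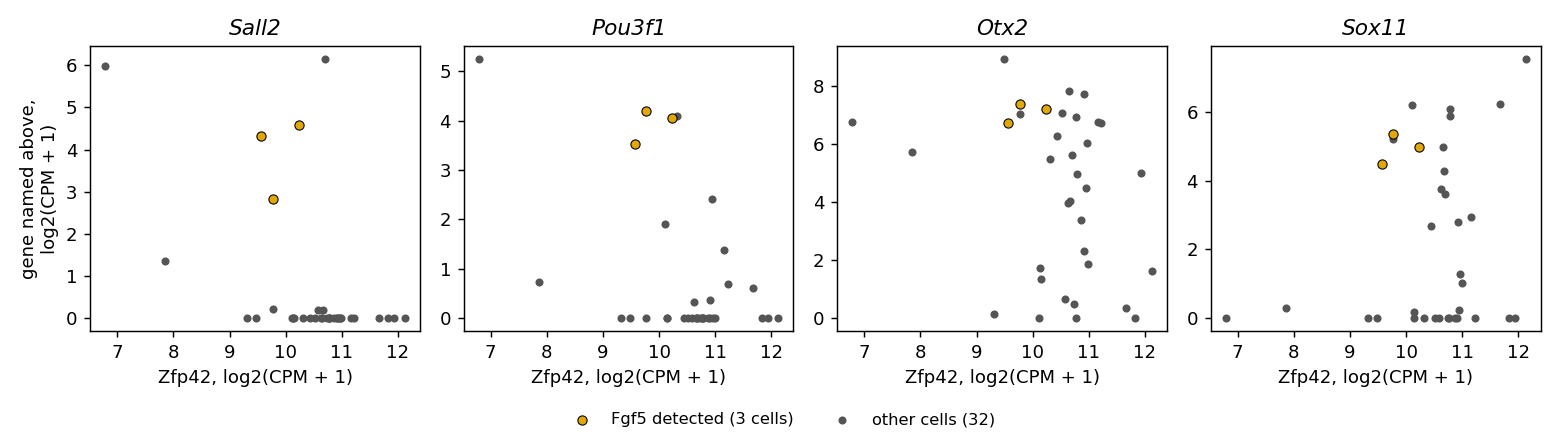
Level of each of 4 members against Zfp42 over the 35 Gata6-low cells, both as log2(CPM + 1), 1 point per cell, with the 3 cells with Fgf5 detected marked. All but 1 of the 6 cells with Sall2 lie left of the median Zfp42 of 1628 CPM (rho -0.51), and Sox11 is high also in the cell with the highest Zfp42 (rho 0.06).

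To set the members beside the rest of the primed program, the mean of their standardised log2 levels was taken in each cell (the member mean). It had a rho of -0.36 with Zfp42 and -0.31 with Esrrb, of -0.43 with total reads and of 0.41 with genes with a read. Of 17 other primed and formative epiblast genes that averaged 10 reads or more, 4 had a rho of at least 0.3 with the member mean, where 6.93% of all genes did, and 0 had -0.3 or lower, where 6.25% did. They were the DNA methyltransferase Dnmt3b at 0.59, the growth factor Fgf15 at 0.48, the basic helix-loop-helix factor Tcf15 at 0.40 and the Wnt effector Lef1 at 0.33. The same 4 genes had a rho of -0.40 (Dnmt3b), -0.50 (Fgf15), -0.32 (Tcf15) and -0.57 (Lef1) with Zfp42. Over the 17 genes the median rho with the member mean was 0.13. Without the 3 Fgf5 cells the member mean had a rho of 0.50 with Dnmt3b, 0.34 with Fgf15, 0.28 with Tcf15 and 0.15 with Lef1, and of -0.25 with Zfp42 and -0.22 with Esrrb.

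Dnmt3b stood at 1779 CPM in cell 11, and at 821, 403 and 391 CPM in the Fgf5 cells 12, 30 and 45. In cell 44, with the highest Otx2, Dnmt3b stood at 1.90 CPM and Fgf15 at 176 CPM. Dnmt3b also varied between the Gata6-low cells beyond its trend, with a variance of 3.07 against 1.07 (scran, adjusted p = 4.63e-05). In the list, Tdgf1, the Nodal co-receptor, was the other gene called in those cells (scran, adjusted p = 0.0121). So 2 of the 17 other primed genes were called, where 1.75% of all genes were. Dnmt3b and Tdgf1 averaged 2036 and 7440 reads per cell and the members 14.8 to 455 reads, a depth at which calls are harder to reach, so the counts of the lists are not comparable.

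Of 18 naive genes, 5 had a rho of -0.3 or lower with the member mean, where 6.25% of all genes did, and 0 had 0.3 or higher, where 6.93% did. They were the transcription factors Tfcp2l1 at -0.47, Zfp42 at -0.36, Klf4 at -0.34, Klf5 at -0.33 and Esrrb at -0.31. Without the 3 Fgf5 cells, Tfcp2l1 (-0.43) and Klf4 (-0.34) still lay past -0.3, and Zfp42 (-0.25), Klf5 (-0.22) and Esrrb (-0.22) did not. The core pluripotency list was divided: the RNA-binding protein gene Lin28a stood at 0.36, and Sox2 at -0.31 and Sall4 at -0.30, among 7 genes.

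The genes most like each member by Spearman correlation over the 35 cells were named next, as the extremes of 11453 genes and with no test. For Otx2 they were Ctdp1 (0.68), Ccdc115 (0.65), Api5 (0.62), Anubl1 (0.60) and Tspan8 (0.58), and among the lowest were Ccnc (-0.64) and Lyn (-0.58). For Sall2 the highest was Ctnnd2 (0.72), which was also among the 5 highest for Zic2 (0.62), and for Pou3f1 it was Nlgn2 (0.68). For Sox11 it was Dtwd2 (0.62), for Sox4 Tulp3 (0.58), for Zic2 Thnsl2 (0.64) and for Fgf5 Kng1 (0.86). Several of these rest on few cells: Ctnnd2 had 5 or more reads in 3 cells, Thnsl2 in 4 and Kng1 in 2. For the member mean the highest were Crmp1 (0.65) and Ndrg4 (0.61), and the lowest were Wdr43 (-0.65) and Myh9 (-0.65). Wdr43 and Myh9 had 5 or more reads in all 35 cells, Crmp1 in 17 and Ndrg4 in 10.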

How the data were processed

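Read counts per gene, whole numbers with no normalization, were deposited by the authors as 1 table of 48 cells on 2 lanes each. Subread 1.4.5-p1, featureCounts, STAR 2.3.1z12 and the build mm9 are listed, without their roles, in the submitters' processing notes. Coordinates and sequences here come from RefSeq on GRCm38.p6 and exon lengths from GENCODE, not from mm9. Lanes were summed per cell. Counts were scaled with edgeR 4.0.16 (TMMwsp) in R 4.3.3 to CPM and taken as log2(CPM + 1). Variance was tested with modelGeneVar of scran 1.30.0 (one-sided, Benjamini-Hochberg, threshold 0.05) over genes that averaged 10 reads or more, and the call was tested on simulated data.

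The members and all gene lists were chosen with earlier results of these data known. The text names the members, Zfp42, Esrrb and Gata6, for each member the 5 highest and 3 lowest genes by Spearman correlation, for the member mean the 10 highest and 10 lowest, and at most 4 genes per list; not all are printed. Genes and cells named beyond that were chosen after their values were seen. Alternatives changed the scaling, the pseudocount, the lane, the detection minimum, the Gata6 threshold and the correlation measure.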

Additional observations from a re-analysis of the deposited data

How the results depend on the processing

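With a minimum of 1 read, at least 3 members were detected in 19 Gata6-low cells, where 11 were found with 5 reads. With 20 reads the median member was detected in 6 of all cells, against 10 with 5 reads; these minimums change the counts by their own construction. The median rho of the members with Esrrb (-0.10) was -0.276 on lane 2 alone, -0.319 with Pearson's correlation and 0.0911 without the 3 Fgf5 cells, and the cause was not tested. The last value counts Fgf5 at 0.28, which rests on 1 read, in cell 26. The mean over member pairs (0.25) was 0.0386 without the 3 Fgf5 cells. The pairs Fgf5 with Zic2 (0.36) and Fgf5 with Sall2 (0.45) turned negative there, at -0.110 and -0.0857, since Fgf5 then has hardly any reads left. Leaving out the Fgf5 cells or cell 11 was chosen after seeing the data. Of the members tested, scran's variance test called none under the alternatives run; on lane 1 these were Otx2, Sall2 and Sox11, on lane 2 also Pou3f1, and with a mean of at least 50 reads Otx2 and Sox11. Fgf5, Pou3f1, Zic2, Sall2 and Sox4 were the most thinly counted members, with means under 50 reads per cell. With reads not thinned, the number of all cells with Fgf5, Pou3f1, Zic2 or Sall2 detected was unchanged. For Sox4 it was 15, against 12 with thinning. No paired analysis was possible because all cells form a single group.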

Other observations

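Genes of other lineages were read in the 35 Gata6-low cells. Of 7 mesendoderm genes, T, Mesp1, Gsc and Evx1 had 0 reads. Eomes, a T-box factor, had 5 or more reads in 8 cells and reached 71.9 CPM, and Mixl1, a homeobox factor, in 4 cells and reached 48.9 CPM. Both had a rho of 0.34 with Otx2, where 4.84% of all genes reached 0.3. With Esrrb, Mixl1 had -0.44 and Eomes -0.07. Among 10 neuroectoderm genes, Hes5 and Neurog2 had 0 reads, and Sox1 and Pax6 reached 1.42 and 6.78 CPM. The tubulin gene Tubb3 had 5 or more reads in 32 of the 35 cells, with a median of 93.3 CPM. It was as widespread in Gata6-high cells, with 5 or more reads in all 13 and a median of 78.1 CPM. Its rho was 0.47 with the member mean and 0.42 with Sox11. Of the 3 neuroectoderm genes that averaged 10 reads or more, 1 reached 0.3 with the member mean, where 6.93% of all genes did. The others, Nes and Ncam1, had 0.10 and 0.22.

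Targets of FGF-ERK signalling, such as Dusp6 (0.24) and Spry2 (-0.01), had a rho of at least 0.3 or of -0.3 or lower with the member mean in 0 of 9 genes. Of all genes, 6.93% lay at 0.3 or higher and 6.25% at -0.3 or lower, so a count of 0 in 9 genes is no finding. The immediate early gene Fos was the 1 of the 9 at -0.3 or lower with Zfp42 (-0.39) and with Esrrb (-0.45), where 6.4% and 6.44% of all genes were; Spry2 had 0.26 and 0.12, and Spry4 had 0.18 and 0.26. Of 8 G2-M genes, Plk1 (-0.33) and Cenpf (-0.32) lay at -0.3 or lower with the member mean, where 6.25% of all genes did. Of 8 G1-S genes 0 did, which is no finding in so short a list. Of 12 primitive endoderm genes, 5 averaged 10 reads or more; among them the matrix gene Sparc had -0.41 with the member mean and -0.46 with Otx2, and the laminin gene Lamb1 had 0.08 and 0.35.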
